A study of Mus musculus with 12 samples.

Results

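The genes of the core autophagy machinery were examined in microdissected growth plate cartilage from mice with endoplasmic reticulum (ER) stress in hypertrophic chondrocytes. The set held 10 genes, and a probe was included when its gene name in the scanner files was one of these symbols, so no signal value entered the choice. All 10 genes were found, on 17 of the 41174 probes of the array. Map1lc3b, Gabarap, Gabarapl1, Gabarapl2 and Atg7 had 2 probes each, Atg12 had 3, and Map1lc3a, Sqstm1, Becn1 and Atg5 had 1. Where a gene had several probes, probe 1 was the brightest over all arrays.

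Hypertrophic zones were cut by scalpel from one tibia of each mouse at an age of 14 days, and the amplified RNA was hybridised in a single colour (Cy3) to Agilent whole mouse genome arrays. Each of the 4 groups had 3 mice on 3 arrays. Schmid mice were homozygous for Col10a1 p.Asn617Lys, a knocked-in substitution in collagen X that causes Schmid metaphyseal chondrodysplasia. Cog mice (ColXTgcog) expressed a misfolding mutant of thyroglobulin, a protein foreign to cartilage, as a transgene under the collagen X promoter, and mice with 1 and with 2 transgenic chromosomes were not separated in the study. Each mutant was compared with wildtype littermates of its own background, here called wildtype (Schmid background) and wildtype (Cog background). The comparisons asked how each misfolding protein altered gene expression in the zone where collagen X is made, and whether the alterations differed between the mutants.

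Autophagy encloses cytoplasm in a double membrane, the autophagosome, which fuses with the lysosome. Becn1 belongs to the lipid kinase complex that marks the site where this membrane forms, Atg7, Atg12 and Atg5 belong to the conjugation system, and that system links the ubiquitin-like LC3 and GABARAP proteins to membrane lipid. Sqstm1 (p62) binds ubiquitinated cargo on one side and LC3 on the other, and is itself degraded with the cargo. Growth plate chondrocytes are known to rely on autophagy, and in many cells ER stress raises the transcription of autophagy genes. Transcript levels do not measure the rate at which autophagosomes form or are degraded.

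Both thyroglobulin probes (Tgn) lay between 17.37 and 17.95 on the normalised log2 scale in the Cog mice, and between 9.44 and 10.22 on the other 9 arrays. The Schmid substitution alters no sequence that these probes read. All 7 hypertrophic chondrocyte markers, Col10a1 among them, and all 7 general chondrocyte markers were well above background on every array. So were all 5 osteoblast markers. Of all probes, 58.9% to 61.8% were well above background in Schmid, 48.0% to 59.4% in its wildtype, 39.6% to 48.1% in Cog and 41.1% to 58.5% in its wildtype. The 3 Schmid arrays filled a slide of their own, and neither mutant shared a slide with its littermates. An effect of the slide and an effect of the genotype therefore cannot be told apart. In such bulk tissue, fewer cells of a type and less RNA per cell cannot be told apart.

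Few of the core genes changed. In Schmid, 2 of the 17 probes rose and 1 fell at an adjusted p of 0.05 or less (limma, adjusted over all 41174 probes). Sqstm1, the cargo receptor, and Atg5, a subunit of the conjugating complex, were the genes that rose, and Map1lc3a, an LC3 gene, was the one that fell. Over the whole array 10.6% of probes rose and 13.3% fell in Schmid, so the share of member probes that moved was close to the background. With the study's further requirement of a 2-fold change, Atg5 remained among the probes that rose and Map1lc3a among those that fell, against 5.78% and 4.69% of all probes. In Cog, 1 of the 17 probes rose, the dimmer probe of Gabarapl2, and it was also past 2-fold. No member probe fell in Cog by limma, where 4 probes had an unadjusted p of 0.05 or less in either direction, against 21.3% of all probes. The background in Cog was 2.73% of all probes higher and 1.86% lower, or 1.56% and 0.748% with the 2-fold requirement.

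The direction of the effects was mixed. The log2 fold changes of the 17 probes ran from −2.27 to 1.34 in Schmid with a median of 0.08, where the median of all probes was −0.06. In Cog they ran from −1.15 to 1.82 with a median of −0.24, where the median of all probes was 0.00. For 5 of the 17 probes the 3 Schmid arrays did not overlap with the 3 arrays of their wildtype, and for 4 the Cog arrays did not overlap with theirs. Over all probes the groups did not overlap for 45.4% in Schmid and 29.4% in Cog, so the member counts were not above the background. When the Schmid effect was tested against the Cog effect, no member probe passed by limma, where 16.6% of all probes did. At an unadjusted p of 0.05 or less there were 4 member probes, against 32.5% of all probes. Between the wildtype groups no member probe passed by limma either, where 0.872% of all probes did, and 3 had an unadjusted p of 0.05 or less, against 14.1% of all probes.

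**Figure D1:**
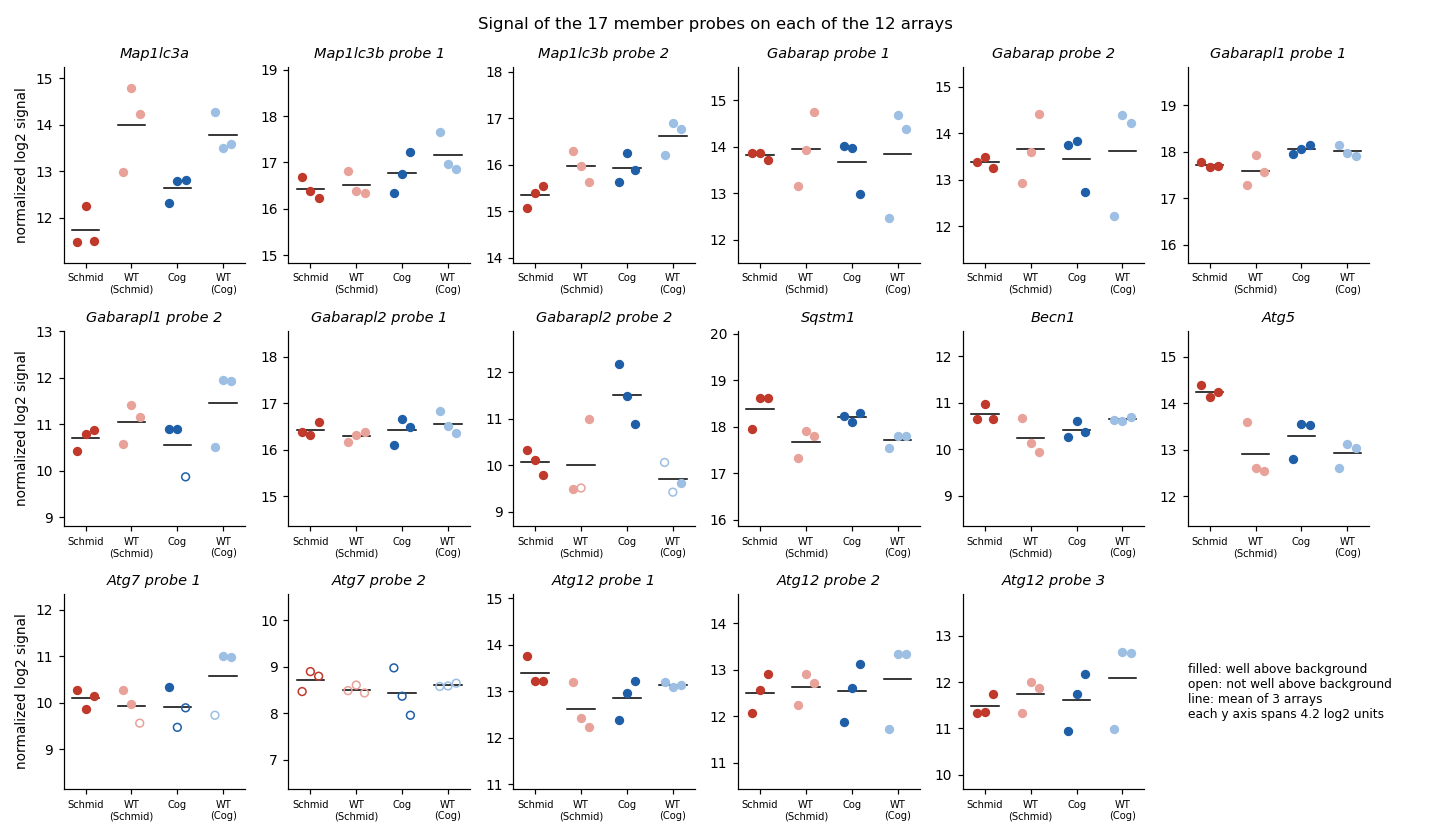
Normalised log2 signal (y axis, each panel spanning the same number of log2 units) of the 17 member probes on the 12 arrays by group (x axis), with a point per array and a line at the mean of the 3 arrays; open points were not well above background. Map1lc3a was below both wildtype groups in every mutant array, Atg5 was highest in Schmid, and Sqstm1 was above the matching wildtype in all 6 mutant arrays.

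Of the LC3 genes, Map1lc3a gave the largest effect of any member. LC3A is one of the proteins that is linked to phosphatidylethanolamine on both faces of the forming autophagosome. Its probe lay at chr2:155018557-155018616 (mm7, the build of the array annotation), and the last 30 bases of its 60 are shown because this one probe carries the result.

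Map1lc3a: gtggattaggcagagatgtgacacccactc

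The normalised log2 signal of Map1lc3a was 11.47, 12.26 and 11.49 in the Schmid mice and 12.99, 14.80 and 14.23 in wildtype (Schmid background). In the Cog mice it was 12.31, 12.79 and 12.82, against 14.28, 13.50 and 13.59 in wildtype (Cog background). All mutant arrays were thus below all arrays of their own wildtype. In Schmid, Map1lc3a fell with a fold change of −4.82 (log2 −2.27, SE 0.42, adjusted p = 0.0044, limma). In Cog the fold change was −2.22 (log2 −1.15, SE 0.42), which did not pass (adjusted p = 0.15, limma). The Schmid effect was lower than the Cog effect by −1.12 on the log2 scale, with a 95% interval of −2.44 to 0.21 (adjusted p = 0.22, limma), so a difference between the mutants was not shown.

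Other measures moved with Map1lc3a in Schmid. Its probe lay in row 39 of the array, and among the probes in the first 30% of rows 29.2% fell in Schmid, against 6.65% in the remaining rows. With a smooth trend over rows removed from each array Map1lc3a still passed, as it did in all 26 alternatives, where its log2 fold change ranged from −2.78 to −1.74. Among 5 red cell markers 3 fell in Schmid, and the log2 of their summed signal was 14.59 to 16.05 in Schmid and 17.94 to 19.91 in its wildtype. The signals were summed before the log2 was taken, so the brightest genes of a list weigh most. Among 6 endothelial markers 4 fell, with values of 12.49 to 13.01 and 14.22 to 14.97 by this measure. Among 6 osteoclast markers 2 fell, with values of 13.53 to 13.88 and 14.47 to 15.61. Among 5 proliferating cell markers 2 fell, with values of 12.91 to 13.21 and 14.76 to 15.66. Hypertrophic chondrocyte markers were also lower by this measure, at 18.56 to 18.86 against 19.05 to 19.97. Of these 7 markers 2 fell, Ihh (log2 fold change −3.55) and Alpl (−1.11). In the other lists 1 of 5 osteoblast and 1 of 5 macrophage markers fell, and none of 6 neutrophil or 7 general chondrocyte markers did. Over all genes 14.8% fell in Schmid at their brightest probe. The part of these cell types in the Map1lc3a value was not tested.

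Map1lc3b encodes LC3B, the form most used to follow autophagosomes, and neither of its probes passed. Probe 1 had a log2 fold change of −0.08 in Schmid and −0.40 in Cog. Probe 2 gave −0.62 in Schmid (95% interval −1.16 to −0.08, adjusted p = 0.087, limma) and −0.70 in Cog (95% interval −1.24 to −0.16, adjusted p = 0.13). On probe 2 the Schmid arrays, at 15.08 to 15.55, were all below their wildtype at 15.62 to 16.30, whereas the Cog arrays, at 15.63 to 16.26, overlapped with their wildtype at 16.21 to 16.91. Both probes lay on chromosome 8, probe 2 at chr8:120238422-120238481 and probe 1 at chr8:120240270-120240329.

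The GABARAP genes encode the other branch of the same family, and 5 of their 6 probes did not pass in either mutant. The coding stretch that Gabarap probe 1 and Gabarapl1 probe 2 both read shows how close the genes are. Of 55 aligned bases 43 matched (78.2%), and the matches are in capitals below.

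Gabarap: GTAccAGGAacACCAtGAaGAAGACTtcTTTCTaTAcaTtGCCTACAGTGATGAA

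Gabarapl1: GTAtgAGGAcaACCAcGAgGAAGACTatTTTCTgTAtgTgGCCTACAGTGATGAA

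Both probes crossed a splice junction, since the Gabarap probe spanned 1818 bases of chromosome 11 (chr11:70074268-70076085) and the Gabarapl1 probe 2473 bases of chromosome 6 (chr6:129561989-129564461). Whether transcripts of one gene bound the probe of the other was not tested.

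The Gabarap probes gave log2 fold changes of −0.13 and −0.28 in Schmid and −0.18 and −0.17 in Cog, with standard errors of 0.56 to 0.57. The Schmid mice were tight and the other groups were spread. On probe 1 the wildtype (Cog background) arrays read 12.46, 14.69 and 14.39 and the wildtype (Schmid background) arrays 13.16, 13.93 and 14.76, while the Cog arrays lay between 12.99 and 14.03 and the Schmid arrays between 13.72 and 13.87. The 95% interval of the Schmid effect on this probe, −1.39 to 1.14, leaves more than a 2-fold change in either direction undetected. The low array, replicate 1 of wildtype (Cog background), was also below the other 2 arrays of its group by more than 1 log2 unit on Gabarapl1 probe 2, Atg7 probe 1 and Atg12 probes 2 and 3.

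Gabarapl1 probe 1 was measured more tightly. It read 17.68 to 17.79 in Schmid and 17.28 to 17.94 in its wildtype, and its 95% intervals of −0.21 to 0.47 in Schmid and −0.30 to 0.39 in Cog lay within a 2-fold change in both mutants. The dimmer probe 2, across the junction shown above, had log2 fold changes of −0.35 in Schmid and −0.90 in Cog (95% interval −1.83 to 0.02, adjusted p = 0.25, limma). It lay in row 100 of the array, among the first 30% of rows, and on Cog replicate 3 it was not well above background.

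Gabarapl2 (GATE-16) had the only probe that passed in Cog, and its probes disagreed. Their starts were 2009 bases apart on chromosome 8, at chr8:110552786-110552845 for probe 1 and chr8:110554795-110554854 for probe 2. Their last 30 bases are given because the result belongs to probe 2 and not to probe 1.

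Gabarapl2 probe 1: agcacccagattaaatccttagcaatcaga

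Gabarapl2 probe 2: ggtagtgtgaagctagaagcaagtagaccc

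Probe 2 read 12.17, 11.48 and 10.89 in the Cog mice and 10.06, 9.42 and 9.61 in wildtype (Cog background), where only 1 of the 3 arrays was well above background. Every Cog array was above every array of its wildtype. The probe rose in Cog with a fold change of 3.53 (log2 1.82, SE 0.43, adjusted p = 0.040, limma). In Schmid it read 10.33, 10.12 and 9.78, and in wildtype (Schmid background) 9.48, 9.51 and 11.00. The groups overlapped, with a log2 fold change of 0.08 (adjusted p = 0.90, limma).

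On the bright probe 1 the Cog effect was −0.15 (95% interval −0.53 to 0.23) and the Schmid effect 0.15 (95% interval −0.24 to 0.53), both on the log2 scale. The Cog call on probe 2 was lost in 12 of 25 alternatives, among them the omission of any wildtype (Cog background) array (adjusted p of 0.051 to 0.14), of Cog replicate 1 or 2 (0.10 and 0.088) and of any Schmid array, which enters only through the shared estimate of the spread (0.056 to 0.064). The Schmid effect on this probe was lower than the Cog effect by −1.74 on the log2 scale (adjusted p = 0.075, limma).

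Sqstm1 rose in Schmid by less than 2-fold. Its probe lay at chr11:50156925-50156984, listed in reverse, and was the only 1 of the 17 that held the poly(A) signal letters AATAAA, in capitals in its last 30 bases.

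Sqstm1: tggtttgtaagtaacctgtAATAAAatgcc

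The normalised log2 signal of Sqstm1 was 17.94, 18.61 and 18.61 in Schmid and 17.32, 17.91 and 17.79 in its wildtype. It was 18.22, 18.09 and 18.29 in Cog and 17.55, 17.80 and 17.79 in its wildtype. In both mutants every array was above every array of the matching wildtype, although the lowest Schmid array (17.94) stood just above the highest array of its wildtype (17.91). The fold change in Schmid was 1.64 (log2 0.72, SE 0.21, adjusted p = 0.031, limma), and in Cog it was 1.40 (log2 0.49, 95% interval 0.03 to 0.94), which did not pass (adjusted p = 0.21). The difference between the effects was 0.23 on the log2 scale (95% interval −0.42 to 0.87, adjusted p = 0.62, limma).

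The Schmid call on Sqstm1 was not robust to processing. It was lost in 10 of 26 alternatives, although the log2 fold change was above 0 in all of them. Scaling the processed signal of the scanner software to the 75th percentile gave a log2 fold change of 0.29 (adjusted p = 0.62), where the median of all probes moved from −0.06 to −0.40, and fitting only the Schmid mice and their wildtype gave 0.72 (adjusted p = 0.094). Without Schmid replicate 2 the adjusted p was 0.099, without Schmid replicate 3 it was 0.10, and without replicate 1 or 3 of its wildtype it was 0.069 or 0.055.

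**Figure D2:**
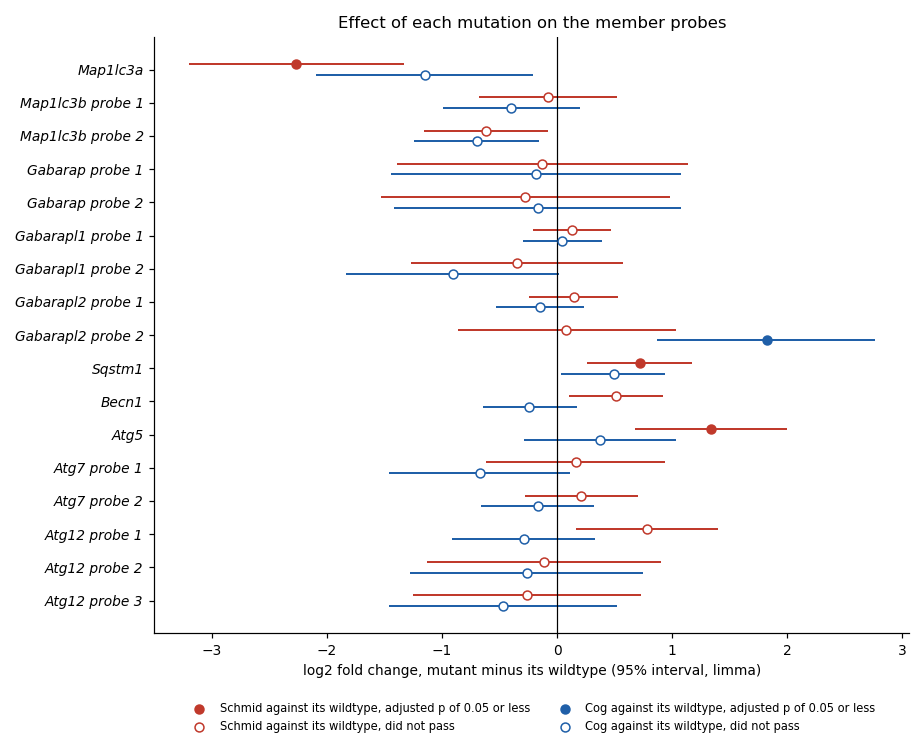
Log2 fold change of each mutant against its own wildtype (x axis) for the 17 member probes (y axis), with 95% intervals from limma; filled points had an adjusted p of 0.05 or less. Map1lc3a (−2.27), Atg5 (1.34) and Sqstm1 (0.72) passed in Schmid and Gabarapl2 probe 2 (1.82) passed in Cog.

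Becn1, the Beclin 1 subunit of the lipid kinase complex that starts the autophagosome membrane, did not pass in either mutant. It read 10.64 to 10.97 in Schmid and 9.93 to 10.67 in its wildtype (log2 fold change 0.51, 95% interval 0.10 to 0.92, adjusted p = 0.067, limma). In Cog it read 10.26 to 10.60, against 10.60 to 10.69 in its wildtype (log2 fold change −0.24, adjusted p = 0.50). The effects differed by 0.74 on the log2 scale (95% interval 0.17 to 1.32), which did not pass (adjusted p = 0.075, limma). Without replicate 1 of wildtype (Schmid background), the highest array of that group, the Schmid effect was 0.72 and passed (adjusted p = 0.0061, limma).

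Atg5 was the clearest gain among the core genes. ATG5 is joined to ATG12, and the pair acts as the ligase that attaches LC3 to lipid. Its single probe lay at chr10:44176828-44176887, and its last 30 bases are shown because they carry the result.

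Atg5: acagtcagtctattggtatgcaaacaatct

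Atg5 read 14.39, 14.13 and 14.24 in Schmid and 13.60, 12.61 and 12.54 in its wildtype on the normalised log2 scale. In Cog it read 12.80, 13.56 and 13.54, and in its wildtype 12.62, 13.13 and 13.04. The Schmid arrays were all above the other 9 arrays, whereas the Cog arrays overlapped with their wildtype. Atg5 rose in Schmid with a fold change of 2.53 (log2 1.34, SE 0.30, adjusted p = 0.010, limma) and had a log2 fold change of 0.37 in Cog (95% interval −0.29 to 1.03, adjusted p = 0.51). The Schmid effect exceeded the Cog effect by 0.97 on the log2 scale (95% interval 0.04 to 1.90), which did not pass (adjusted p = 0.14, limma). The Schmid call held in all 26 alternatives, with log2 fold changes of 1.14 to 1.68. Its probe was in row 332. In rows 160 to 532, 11.6% of probes rose in Schmid, against 8.47% in rows 1 to 159.

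Atg12 encodes the ubiquitin-like partner of ATG5, and its probes did not move together. Probe 1 read 13.22 to 13.76 in Schmid, above all arrays of its wildtype at 12.23 to 13.21, with a log2 fold change of 0.78 (95% interval 0.16 to 1.40, adjusted p = 0.066, limma). Probes 2 and 3 gave −0.11 and −0.26 in Schmid, with standard errors of 0.46 and 0.45. In Cog the 3 probes gave log2 fold changes of −0.29, −0.26 and −0.47, none of which passed. The Schmid effect on probe 1 passed in 10 of 26 alternatives, including removal of the trend over array rows (0.94 on the log2 scale, adjusted p = 0.043) and a fit of the Schmid mice and their wildtype with the replicate number as a block (0.78, adjusted p = 0.034).

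Atg7, the activating enzyme for both ubiquitin-like systems, was dim on this array. Probe 1 was well above background on all 3 Schmid arrays but on only 1 of the 3 Cog arrays, and its log2 fold changes of 0.16 in Schmid and −0.67 in Cog did not pass (adjusted p = 0.77 and 0.31, limma). Probe 2 was below that level on all 12 arrays, so its fold change in either mutant is not given. Of the 6 probes of Atg5, Atg7 and Atg12, that of Atg5 was the one that passed in Schmid.

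**Figure D3:**
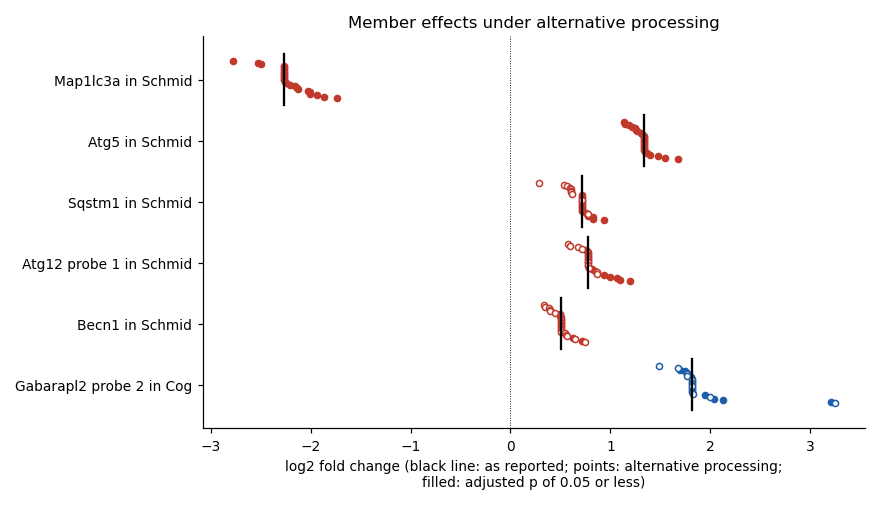
Log2 fold change (x axis) of 6 member effects (y axis) as reported, shown by the black line, and under each alternative processing, shown by points filled where the adjusted p was 0.05 or less. The Map1lc3a and Atg5 points are filled throughout, whereas the calls on Sqstm1, Atg12 probe 1, Becn1 and Gabarapl2 probe 2 depended on the processing.

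Around the core, 63 other genes of the pathway were measured, each by its brightest probe. In Schmid 16 of them rose and 1 fell at an adjusted p of 0.05 or less (limma), where 10.3% of all genes rose and 14.8% fell by the same measure. Their median log2 fold change was 0.54, against −0.09 over all genes. Of the 63 probes 47 were well above background on all 12 arrays, against 12828 of all 41174 probes, the dimmer probes of each gene included. The brightest probes of all genes were not counted in this way. The shares over all genes may therefore include more dim probes than this list. In Cog 3 of the 63 rose and none fell, where 3.17% of all genes rose and 2.09% fell, and the median was 0.06 against 0.00. At an unadjusted p of 0.05 or less, 7 had a positive and 7 a negative effect in Cog, against 12.2% and 10.4% of all genes. The effects of the mutants differed for 9 of the 63, where 17.7% of all genes passed that test. The count of genes that rose in Schmid was 9 without Schmid replicate 1 and also without replicate 2 of its wildtype, and 25 with array weights. Over all probes, in either direction, 5846, 5445 and 14661 passed in these fits, against 4385 that rose and 5486 that fell as reported. The Cog count was 1 without replicate 2 of its wildtype and 5 with array weights or the slide block. Over all probes, in either direction, 397, 5115 and 5530 passed in these fits, against 1122 that rose and 764 that fell as reported.

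**Figure D4:**
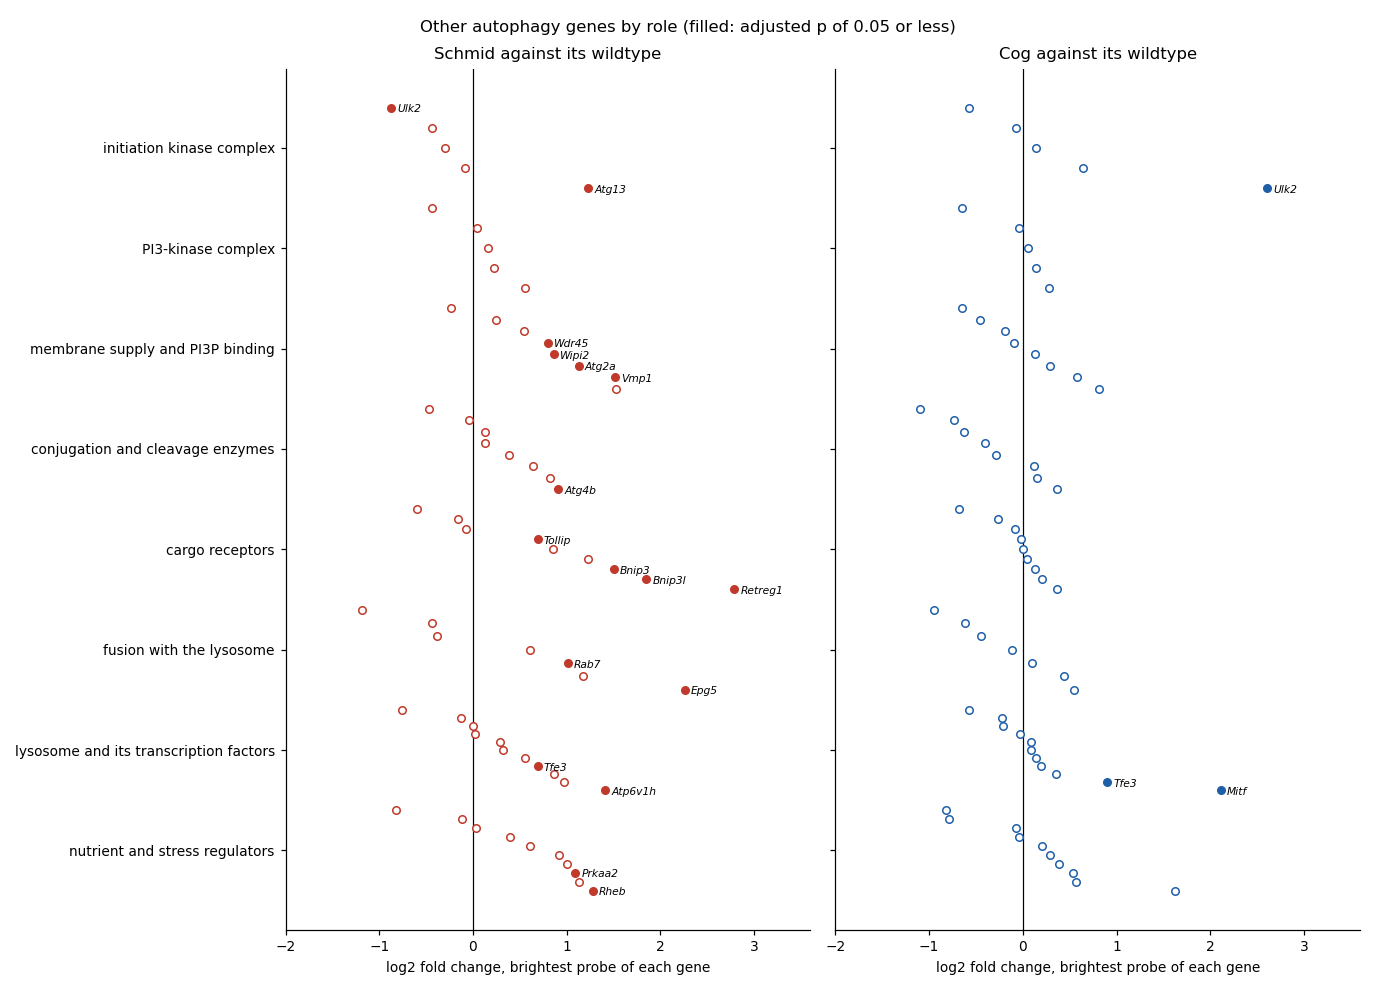
Log2 fold change (x axis) of 63 other autophagy genes at the brightest probe of each, by role (y axis), in Schmid (left) and Cog (right); named, filled points had an adjusted p of 0.05 or less. In Schmid 16 filled points lie to the right of 0 and 1 to the left, and in Cog 3 lie to the right.

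Cargo receptors, the class to which Sqstm1 belongs, had 4 of 9 genes higher in Schmid and none changed in Cog. For this list and those below, the share over all genes that rose was 10.3% in Schmid and 3.17% in Cog. No list was tested as a set. Retreg1 (FAM134B), the receptor for autophagy of the ER itself, rose with a fold change of 6.93 (log2 2.79, SE 0.51, adjusted p = 0.0041, limma), although only 1 of the 3 wildtype (Schmid background) arrays was well above background. The mitophagy receptors Bnip3l and Bnip3 rose with fold changes of 3.61 and 2.82. Tollip, a ubiquitin-binding adaptor, rose 1.61-fold on its brightest probe while its next probe, well above background on every array, fell by 1.72 on the log2 scale, so its direction was not settled. For Retreg1 and Bnip3l both probes rose.

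Genes of membrane supply and PI3P binding had 4 of 8 higher in Schmid. Vmp1, an ER membrane protein needed for autophagosome formation, rose with a fold change of 2.87 and on both probes. Wipi2 and Wdr45, which bind PI3P on the forming membrane, rose 1.82-fold and 1.74-fold, although the second Wipi2 probe gave 0.17 on the log2 scale and did not pass. Atg2a, a lipid transfer protein, rose 2.19-fold on its brightest probe and fell by 1.20 on the log2 scale on its second, so its direction was not settled either. None of these genes passed in Cog.

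Of 7 genes for fusion with the lysosome, 2 rose in Schmid, where 10.3% of all genes did. These were the tethering factor Epg5 (fold change 4.80) and the small GTPase Rab7 (2.01). The second Rab7 probe did not pass (log2 1.11, adjusted p = 0.079, limma). Of 11 genes for the lysosome and its transcription factors, the proton pump subunit Atp6v1h (2.65) and the transcription factor Tfe3 (1.62) rose in Schmid. Tfe3 also rose in Cog (1.87). Mitf of the same family rose in Cog with a fold change of 4.32 (log2 2.11, SE 0.39, adjusted p = 0.018, limma). No array of its wildtype was well above background on this probe, so the size of the change is uncertain. The second probes of Tfe3 and Mitf did not pass. That of Mitf, well above background on 11 arrays against 8 for the first, gave −0.07 in Cog on the log2 scale. Of 8 conjugation and cleavage enzymes other than the members, Atg4b, a protease that trims LC3, rose 1.88-fold in Schmid. Of 10 nutrient and stress regulators, the AMPK subunit Prkaa2 (2.13) and the mTORC1 activator Rheb (2.42) rose in Schmid.

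The initiation kinase complex had 1 gene higher and 1 lower of 5 in Schmid. Atg13, its scaffold subunit, rose with a fold change of 2.34. Ulk2, one of its kinases, fell in Schmid with a fold change of −1.82 and rose in Cog with a fold change of 6.12 (log2 2.61, SE 0.26, adjusted p = 0.0013, limma). The second Ulk2 probe, also well above background on every array, gave −0.13 in Schmid and −0.31 in Cog on the log2 scale and did not pass, and the third fell in Schmid (−0.71) and gave −0.49 in Cog, so the Cog gain rested on 1 probe. On the first probe the wildtype groups themselves differed, by 1.42 on the log2 scale (adjusted p = 0.038, limma). None of the 5 genes of the PI3-kinase complex other than Becn1 passed in either mutant by limma, and none had an unadjusted p of 0.05 or less.

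Several of these Schmid calls were lost in some of 26 alternatives. These were Atg4b and Wdr45 in 11 each, Ulk2 in 9, Bnip3 in 7, and Tollip, Tfe3 and Rheb in 6 each. The Schmid call on Atp6v1h was lost in 2 and that on Prkaa2 in 1. In Cog the call on Tfe3 was lost in 6 of 25 alternatives and that on Mitf in 3. Without replicate 2 of wildtype (Schmid background), the adjusted p was 0.10 for Atg4b, 0.11 for Wdr45, 0.13 for Ulk2, 0.12 for Bnip3, 0.055 for Tfe3 and 0.088 for Rheb (limma). The Schmid mice paired with their wildtype by replicate number gave an adjusted p of 0.0503 for Atg4b, 0.051 for Ulk2 and 0.064 for Tfe3.

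Promoters of 7 of the 10 members were listed in the RefSeq table (GRCm38.p6, 250 bases before to 50 after the start). None held the C/EBP-ATF element TTGCATCA, the TFEB element core TCACGTGA or the AP-1 or NRF2 core TGACTCA on either strand. These letters occurred in 0.895%, 0.974% and 5.20% of the 32851 promoters of the same length in the table. Map1lc3a, Becn1 and Atg12 were not looked at in this way.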

How the data were processed

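Hypertrophic zone RNA of 12 mice was amplified through 2 rounds and read on 12 arrays. The deposited scanner files hold spot and local background intensity per probe, extracted by the authors with Agilent Feature Extraction 9.5.3, and the deposited series matrix holds the authors' normalised log2 values. From the intensities, background was corrected by normexp (offset 50), outlier spots were dropped, values were quantile normalised without control spots, and spots of a probe were averaged. These steps follow the methods of the study, except that the dropping of outlier spots is not stated there. Every array then correlated with its deposited column at 0.99987 or above. A mean was fitted for each of the 4 groups (limma 3.58.1 in R 4.3.3, 8 residual degrees of freedom), and p-values were adjusted by Benjamini and Hochberg over all 41174 probes, with no filter on dim probes. "Rose" and "fell" mean an adjusted p of 0.05 or less. The fit was tested on simulated data. With 3 arrays a group, the number of arrays limits the precision. Intervals cover the spread between arrays of a group, in which variation between mice and technical variation cannot be separated. They do not cover a slide effect shared by a group.

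The genes and gene lists were chosen with earlier results of these data known. All 10 members are described, with values on every array for those whose brightest probe passed in Schmid, in Cog or in the difference. Gabarapl2 probe 2, not the brightest of its gene, was given array by array after its values were seen. For other autophagy genes, the brightest probe was used, and at most 4 genes per list, those with the largest fold changes that passed, are named. Older array names were matched to current symbols through RefSeq synonyms. Atg9a was not matched. No column lacked a sample.

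Mice with the same replicate number in Schmid and its wildtype deviated together over 12828 probes well above background on all arrays (correlations of 0.307, 0.283 and 0.117). Over all probes the third pair reached only 0.066. The reported fit did not use the numbers, and a fit that took them as pairs was run as an alternative. The wildtype groups, of different backgrounds, also correlated by number (0.504, 0.115 and 0.274). Those of Cog and its wildtype did not (−0.208, 0.151 and −0.200). Nothing in the labels says what the numbers share.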

Additional observations from a re-analysis of the deposited data

Results flagged for a closer look

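Among the 17 member probes, no effect of one mutant differed from that of the other at an adjusted p of 0.05 or less. Among the 63 other autophagy genes 9 did, 8 of them named above, by the limma test of the Schmid effect minus the Cog effect, where 17.7% of all genes passed at their brightest probe. The difference was 3.47 for Retreg1 (SE 0.72, adjusted p = 0.011), 1.64 for Bnip3l (adjusted p = 0.019) and 0.95 for Tollip (adjusted p = 0.023), all on the log2 scale. It was 1.32 for Atg2a (adjusted p = 0.014), 1.32 for Wipi2 (adjusted p = 0.0049), 1.13 for Rab7 (adjusted p = 0.023) and 1.31 for Atg4b (adjusted p = 0.040). Ulk2 had the opposite sign, with a difference of −3.48 (SE 0.37, adjusted p = 0.00067, limma). Tsc2, the gene not named above, had a difference of −1.37 (adjusted p = 0.040). For Ulk2 the wildtype groups also differed, by 1.42 (adjusted p = 0.038), and its second probe gave −0.13 in Schmid and −0.31 in Cog. The second probes of Tollip and Atg2a fell in Schmid (−1.72 and −1.2), so for these genes the direction of the Schmid effect was not settled. The Retreg1, Wipi2 and Ulk2 differences, at the brightest probe, passed in all 24 alternatives, and that of Atg4b in 9.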

How the results depend on the processing

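Of the member effects, Map1lc3a and Atg5 in Schmid kept their direction and passed in all 26 alternatives. Some of these could change a Schmid call little. Omission of a Cog or wildtype (Cog background) array acts on it only through the shared estimate of the spread and the adjustment. None of the alternatives could separate the slide from the genotype. The count of member probes past the threshold in Schmid, 3 as reported, was 5 with array weights and 6 with slide as a random block, 2 with the Schmid mice and their wildtype alone, and 2 to 4 when one array was left out, 2 without Schmid replicate 2 or 3 or wildtype (Schmid background) replicate 3. Over the whole array 4385 probes rose and 5486 fell in Schmid as reported. In either direction 14661 passed with array weights, 13738 with the slide block and 6883 with the Schmid mice and their wildtype alone. With one array left out it was 5445 to 12991. The Cog count, 1 as reported with and without the 2-fold requirement, was 0 in each case for the processed signal at the 75th percentile, for the Cog mice and their wildtype alone, with the row trend removed and with the brightest probe of each gene. It was 4 and 3 with array weights, and 2 without the fold requirement with slide as a random block. Over the whole array 1122 probes rose and 764 fell in Cog as reported. Without the fold requirement 5115 passed with array weights and 5530 with the slide block. Counts were 361 for the processed signal at the 75th percentile, 711 for the Cog mice and their wildtype alone and 1284 with the row trend removed. Leaving out one array at a time gave 0 to 2 in Cog for both counts, 2 only without wildtype (Schmid background) replicate 1. Over all probes it gave 397 to 2635 without the fold requirement, the highest also without that array. For the difference between the mutants, 0 as reported, the count was 2 for the processed signal quantile normalised and for normexp values at the 75th percentile, 6 with array weights, 3 with the slide block, and 1 with row and GC trends removed, an alternative chosen after seeing the data. Leaving out one array gave 0 to 5 there, 5 without wildtype (Schmid background) replicate 1. Over all probes 6819 differed as reported, 10487 with array weights and 12012 with the slide block. Counts were 7370 for the processed signal quantile normalised, 4495 for normexp values at the 75th percentile and 5216 with both trends removed. With one array left out the range was 4290 to 9703, the highest without that same array. Between the wildtype groups the member count, 0 as reported, was 1 with array weights, where 1428 of all probes passed, against 359 as reported. The difference for Atg7 probe 2, not well above background on any array, was 0.38 and did not pass as reported (adjusted p = 0.43, limma). With the processed signal quantile normalised it was −1.50 and passed (adjusted p = 0.028, limma). The causes of these shifts were not tested.

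With the replicate block over all 12 arrays, 3 member probes passed in Schmid and 0 in Cog, and the pairing of Schmid mice with their wildtype alone, added after seeing the data, changed among the members only the call on Atg12 probe 1 (log2 fold change 0.78, adjusted p = 0.034, limma). Among the other named genes it ended the calls on Atg4b, Ulk2 and Tfe3 in Schmid. Over all probes 9358 passed in Schmid and 1666 in Cog with the block over all 12 arrays. With the Schmid pairing alone 7213 passed in Schmid.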
